A study of Mus musculus with 12 samples.

Results

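The genes described here are the integrins, cadherins, claudins and laminins, together with 7 other genes of cell junctions, in Min6 cells, an insulin-secreting line derived from a mouse insulinoma. They were chosen by name: every symbol in the count tables that follows the naming pattern of integrin alpha and beta subunits, numbered cadherins, numbered claudins or laminin alpha, beta and gamma chains, plus Cxadr, Epcam, Ncam1, F11r, Tjp1, Ocln and Gjd2. The pattern found 95 of the 24421 symbols: 18 integrin alpha and 9 integrin beta genes, 4 genes named after integrins that are no receptor subunits, 23 cadherins, 23 claudins, 11 laminin chains and the 7 other junction genes. At least 1 read fell on 92 of them, and 49 passed the filter on low counts and were tested, among 13102 tested genes in all. The other 46 were sparse, with 0 to 115 reads summed over all libraries.

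The cells were infected for 48 h with adenovirus that delivered either a short hairpin RNA directed at Il22ra1, a receptor subunit for interleukin-22 (the sh-Il22ra1 group), or the control hairpin of the sh-ctrl group. Both groups received 0.3 mM palmitate, a saturated fatty acid, for 24 h, and each had 6 libraries; the experiment therefore holds no cells without virus and none without palmitate. The series title names cytochrome b5 reductase 3, and the comparison described here is that of the hairpins. Whether the replicates came from separate cultures is not stated in the labels, and the p-values therefore reflect spread among these samples alone, some of which may be technical. Levels are in CPM, reads per 1e+06 reads in genes after TMM scaling of the libraries.

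Integrins are paired alpha and beta chains that span the membrane, bind matrix proteins outside the cell and couple through talin and kindlin to the actin cytoskeleton. Laminins are three-chain glycoproteins of the basement membrane and are among the main ligands of integrins that contain the alpha 3 and alpha 6 chains. Classical cadherins hold neighbouring cells together at adherens junctions and bind catenins inside the cell, claudins form the strands of tight junctions, and connexins form gap junctions; in islets, contacts between beta cells through E-cadherin and connexin 36 are known to help coordinate insulin secretion, and contact with basement membrane through integrin beta 1 is known to help maintain beta cells.

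Promoter sequence was at hand for 64 of the 95 genes, and for 16 of the 22 that passed the test. The 250 bases before the start site are shown for the pair of fallen and the pair of risen genes with the smallest p-values among those with an entry, so that they can be read beside the values given further on. All are RefSeq sequences on GRCm38.p6, written 5′ to 3′ in the direction of the gene, with matches to any of 3 searched motifs in capitals. Gjd2 lies on the minus strand at chr2:114013620-114013869, and its capitals are CACCTG read on the other strand. Cldn11 lies on the plus strand at chr3:31149670-31149919 and holds none of the motifs. F11r lies on the plus strand at chr1:171437311-171437560, and its capitals are CACCTG followed by TGANTCA. Cldn12 lies on the minus strand at chr5:5514850-5515099, and its capitals are TTCNNNGAA. Of its 3 listed starts, the start with the most motif matches is shown, so the match depends in part on that choice.
Gjd2: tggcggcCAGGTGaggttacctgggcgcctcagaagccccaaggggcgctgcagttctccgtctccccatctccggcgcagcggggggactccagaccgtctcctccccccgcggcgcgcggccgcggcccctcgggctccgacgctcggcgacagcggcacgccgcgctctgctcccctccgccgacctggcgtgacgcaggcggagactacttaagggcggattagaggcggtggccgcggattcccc
Cldn11: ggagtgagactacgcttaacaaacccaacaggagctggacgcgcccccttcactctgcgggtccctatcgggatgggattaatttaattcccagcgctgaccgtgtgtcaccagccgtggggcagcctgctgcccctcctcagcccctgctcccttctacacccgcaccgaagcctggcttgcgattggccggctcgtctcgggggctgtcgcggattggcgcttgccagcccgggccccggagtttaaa
F11r: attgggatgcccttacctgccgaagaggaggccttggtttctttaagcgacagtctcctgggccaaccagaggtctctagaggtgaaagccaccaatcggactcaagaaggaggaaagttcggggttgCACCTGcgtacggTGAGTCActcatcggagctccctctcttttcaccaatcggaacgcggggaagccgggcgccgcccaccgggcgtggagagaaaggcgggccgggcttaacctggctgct
Cldn12: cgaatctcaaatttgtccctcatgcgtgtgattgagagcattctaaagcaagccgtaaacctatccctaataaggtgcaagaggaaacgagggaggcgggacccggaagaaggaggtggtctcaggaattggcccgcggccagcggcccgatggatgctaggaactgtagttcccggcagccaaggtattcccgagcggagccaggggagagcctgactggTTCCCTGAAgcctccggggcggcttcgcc

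The motifs are the core of the STAT site (TTCNNNGAA), of the AP-1 site (TGANTCA) and of an E-box bound by Snail-type repressors (CACCTG), each searched on both strands. Counted from the start site, the match in Gjd2 spans bases -243 to -238, those in F11r span -122 to -117 and -109 to -103, and that in Cldn12 spans -29 to -21. A gene was counted if any of its listed starts had a match. TTCNNNGAA was present in 6 of the 64 genes and in 8.13% of all 27025 genes with an entry. TGANTCA was present in 4 of 64 and 7.82%, and CACCTG in 17 of 64 and 19.4%. A match describes letters only, and the absence of one says only that these letters are not in this window.

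Reads in genes numbered 14408576 to 15595603 in sh-Il22ra1 libraries and 13108494 to 15887448 in sh-ctrl libraries. Il22ra1 itself had 1 to 4 reads in each sh-Il22ra1 library and 7 to 20 in each sh-ctrl library, with no overlap between the groups. Reads without an alignment made up 9.79% ± 1.154 of sh-Il22ra1 files and 14.8% ± 1.74 of sh-ctrl files (SD, n = 6 each), again with no overlap, and the part of this difference in the results below was not tested. The sh-ctrl libraries differed among themselves with exon length, sh-ctrl 1 and 4 in the opposite direction to sh-ctrl 2 and 6. Among the tested adhesion genes, the deviation of a library from the mean of the other sh-ctrl libraries was correlated with the log2 of exon length. The r was -0.38 in sh-ctrl 1 and -0.42 in sh-ctrl 4, and 0.45 in sh-ctrl 2 and 0.32 in sh-ctrl 6 (49 genes, which share each library). Values without sh-ctrl 1 and 4 are given where they change a call. Leaving out sh-ctrl 2 and 6 together was not tested. The 12 listed beta cell markers were all present. Of these 2 were higher, Neurod1, at 161 CPM in sh-Il22ra1 and 124 CPM in sh-ctrl libraries, and Slc30a8, at 314 and 265 CPM. Another 6 were lower, among them Mafa, at 227 CPM in sh-Il22ra1 and 555 CPM in sh-ctrl libraries, and Slc2a2, at 87.3 and 166 CPM. Ins2, Pdx1, Nkx2-2 and G6pc2 did not pass. The 10 acinar markers were all below 1 CPM. Of 5 markers of other islet cells 2 were lower, among them the hormone gene Gcg, at 147 CPM in sh-Il22ra1 and 267 CPM in sh-ctrl libraries, and of 7 endothelial markers only Plvap passed the test, at 75.3 CPM in sh-Il22ra1 and 99.9 CPM in sh-ctrl libraries. Of 7 duct markers 3 were lower and Krt7 was higher, at 219.8 CPM in sh-Il22ra1 and 169.9 CPM in sh-ctrl libraries. The part of these markers in the values of adhesion genes was not tested.

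Levels differed widely within each family. At least 1 CPM was reached by 41 of the 95 genes in sh-Il22ra1 libraries and 42 in sh-ctrl libraries, and 10 CPM by 24 and 25. Per kilobase of exon, the highest members were F11r, at 82.1 ± 3.32 CPM per kb in sh-Il22ra1 and 63.8 ± 3.36 in sh-ctrl libraries, and Cdh1, at 72.3 ± 3.96 and 72.4 ± 8.26 (SD, n = 6 each). F11r encodes JAM-A, an immunoglobulin-type protein of tight junctions, and Cdh1 encodes E-cadherin, the cadherin of epithelia.

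Among integrins a small set of chains had levels per kilobase well above the rest. Itgb5 had 49.5 ± 2.05 CPM per kb in sh-Il22ra1 and 44.5 ± 2.84 in sh-ctrl libraries, and Itgb1 had 37.3 ± 2.66 and 43.0 ± 1.46 (SD, n = 6 each). The next beta chain, Itgb2, had 2.01 CPM per kb in sh-Il22ra1 and 1.23 in sh-ctrl libraries. The alpha chains with the highest levels were Itga3, at 18.4 CPM per kb in sh-Il22ra1 and 16.7 in sh-ctrl libraries, Itga6, at 8.54 and 11.5, and Itgav, at 9.24 and 10.5, with Itga2b next at 2.602 and 2.45. Itga6 and Itgav changed places between the groups, and their levels overlapped in both. Laminin chains were low throughout: Lama5, the highest, had 1.17 CPM per kb in sh-Il22ra1 and 2.10 in sh-ctrl libraries.

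**Figure D1:**
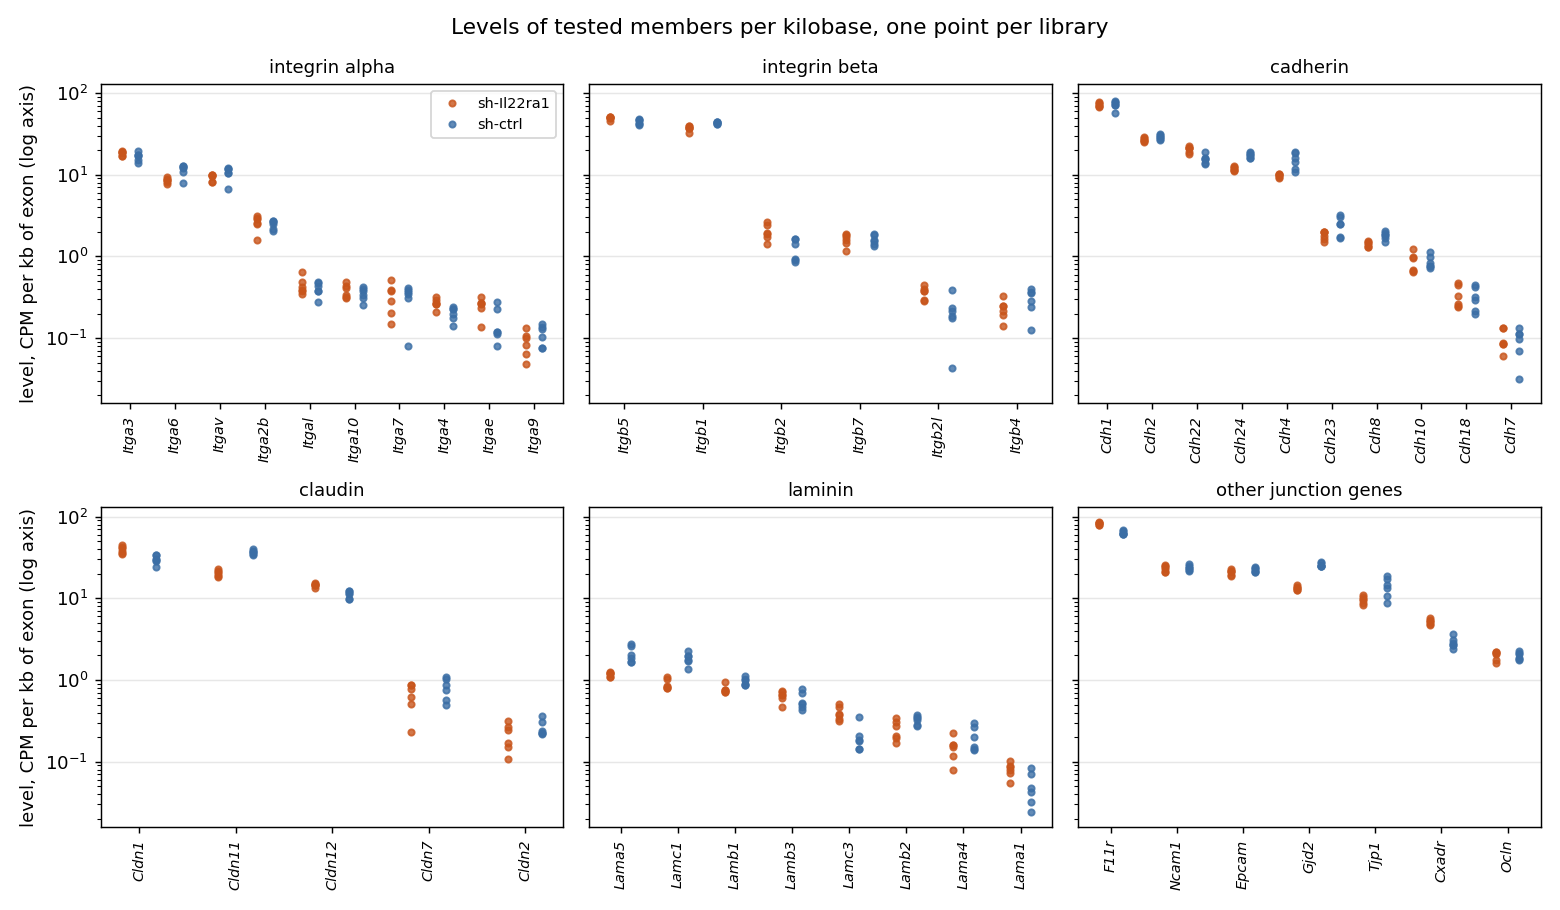
Level of each tested gene in CPM per kb of exon on a log axis, one point per library, with sh-Il22ra1 to the left of sh-ctrl and families in separate panels. Itgb5 and Itgb1 lie far above the other beta chains and Cdh1 above the other cadherins, while laminin chains average at most 2.10 CPM per kb.

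Of the 49 tested genes, 10 rose and 12 fell in sh-Il22ra1 libraries relative to sh-ctrl, by the quasi-likelihood test of edgeR at an adjusted p of 0.05 (Benjamini-Hochberg over all 13102 tested genes), and 27 did not pass. These 22 are 44.9% of those tested; over all tested genes 51.9% passed, 25.4% higher and 26.5% lower, and the share of adhesion genes is near that background. Their median log2 fold change was 0.02 with an SD of 0.47 across genes, against a median of -0.0043 and an SD of 0.47 over all tested genes. In 11 of the 49 the groups did not overlap, 4 higher and 7 lower, where the background was 28.1%. By family, 1 of 10 integrin alpha genes passed, 4 of 6 integrin beta genes, 5 of 10 cadherins, 3 of 5 claudins, 4 of 9 laminin chains, 4 of 7 other junction genes and 1 of the 2 tested integrin-named genes that are no subunits. Of the 22 calls, 17 held under all 20 alternative settings.

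**Figure D2:**
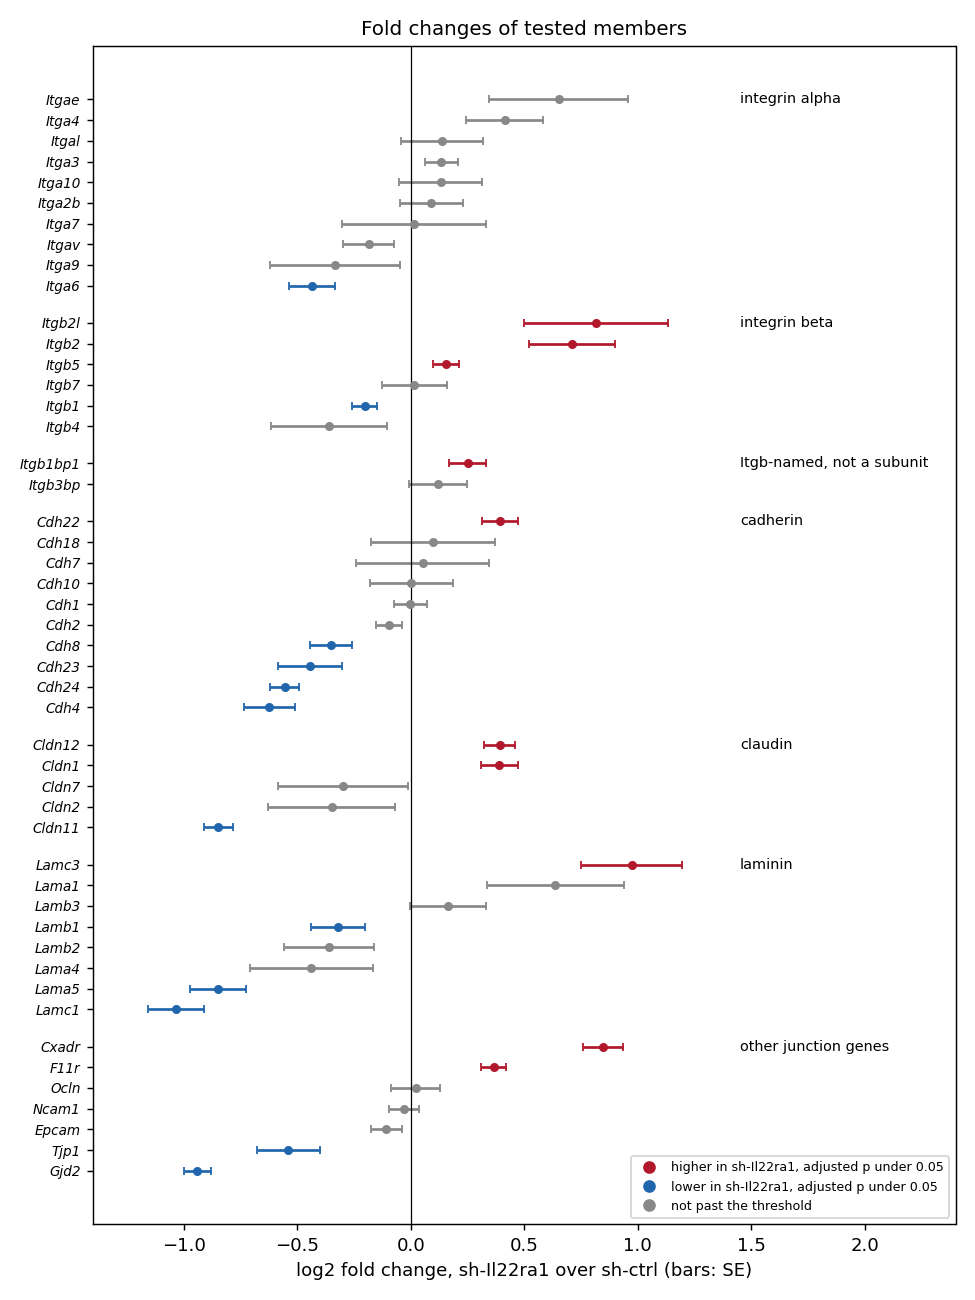
Log2 fold change of sh-Il22ra1 over sh-ctrl for tested genes, grouped by family, with bars for the SE and colour for the call. Fold changes run between -1.04 (Lamc1) and 0.97 (Lamc3). Genes of a family lie on both sides of 0, except the integrin-named genes that are no subunits, which lie above 0.

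Among the junction genes outside the large families, Cxadr and F11r rose, and Gjd2 and Tjp1 fell. Cxadr encodes CAR, a tight junction protein that serves as the attachment receptor of many adenoviruses. The gene lies on the plus strand of chromosome 16 (GRCm38, 78301489 to 78359774). Its levels were 40.4, 34.9, 38.3, 37.3, 33.9 and 36.9 CPM in sh-Il22ra1 libraries 1 to 6, against 25.9, 20.1, 21.7, 17.0, 19.2 and 19.3 CPM in sh-ctrl libraries 1 to 6. The groups did not overlap, and sh-ctrl 1 was the highest of its group. Cxadr thus had a log2 fold change of 0.85 (SE 0.0876, edgeR adjusted p = 2.64e-07), a 1.80-fold higher level. It shares 5.94% of its exon bases with Btg3 on the other strand, and the strand setting of the counting is not given in the sources used here. Both groups carried an adenovirus, and there are no cells without virus to set these levels against.

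Gjd2 encodes connexin 36, the gap junction protein that couples beta cells electrically, and it had the smallest p-value of all 49 genes. It was measured at 41.8, 38.1, 38.8, 36.3, 36.8 and 39.2 CPM in sh-Il22ra1 libraries 1 to 6, against 78.3, 79.6, 72.0, 72.2, 71.0 and 70.7 CPM in sh-ctrl libraries. Every sh-Il22ra1 library was below every sh-ctrl library, and the log2 fold change was -0.94 (SE 0.0594, edgeR adjusted p = 4.63e-10). Gjd2 occupies chromosome 2 from 114009601 to 114013619 on the minus strand (GRCm38), next to the promoter sequence printed for it.

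F11r had 197, 209 and 218 CPM as the lowest, median and highest sh-Il22ra1 values, against 152, 157 and 173 CPM in sh-ctrl libraries. The groups were separate, with a log2 fold change of 0.36 (SE 0.0531, edgeR adjusted p = 1.59e-05). Tjp1 encodes ZO-1, the scaffold that links tight junction proteins to actin. Its levels were 72.9, 62.1, 78.0, 59.1, 69.4 and 67.4 CPM in sh-Il22ra1 libraries 1 to 6, against 75.4, 132, 104, 62.7, 96.0 and 124 CPM in sh-ctrl libraries. The sh-ctrl values spread widely, and sh-ctrl 1 and 4 lay within the sh-Il22ra1 range while the other 4 lay above it. The log2 fold change of Tjp1 was -0.54 (SE 0.138, edgeR adjusted p = 0.00313), and -0.39 (edgeR adjusted p = 0.000790) with offsets for exon length and GC content.

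The remaining 3 junction genes did not pass. Epcam, an epithelial adhesion molecule, had 38.2, 43.8 and 47.8 CPM as lowest, median and highest in sh-Il22ra1 libraries and 43.8, 45.8 and 50.2 CPM in sh-ctrl libraries (log2 fold change -0.11, SE 0.0672, edgeR adjusted p = 0.187). Ncam1, the neural cell adhesion molecule that islet cells also carry, had 147, 167 and 182 CPM in sh-Il22ra1 and 153, 167 and 185 CPM in sh-ctrl libraries (log2 fold change -0.03, SE 0.0670). Ocln, which encodes the tight junction protein occludin, had 6.91, 8.98 and 9.33 CPM in sh-Il22ra1 and 7.33, 8.30 and 9.68 CPM in sh-ctrl libraries (log2 fold change 0.02, SE 0.108). The groups overlapped for all 3 genes.

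**Figure D3:**
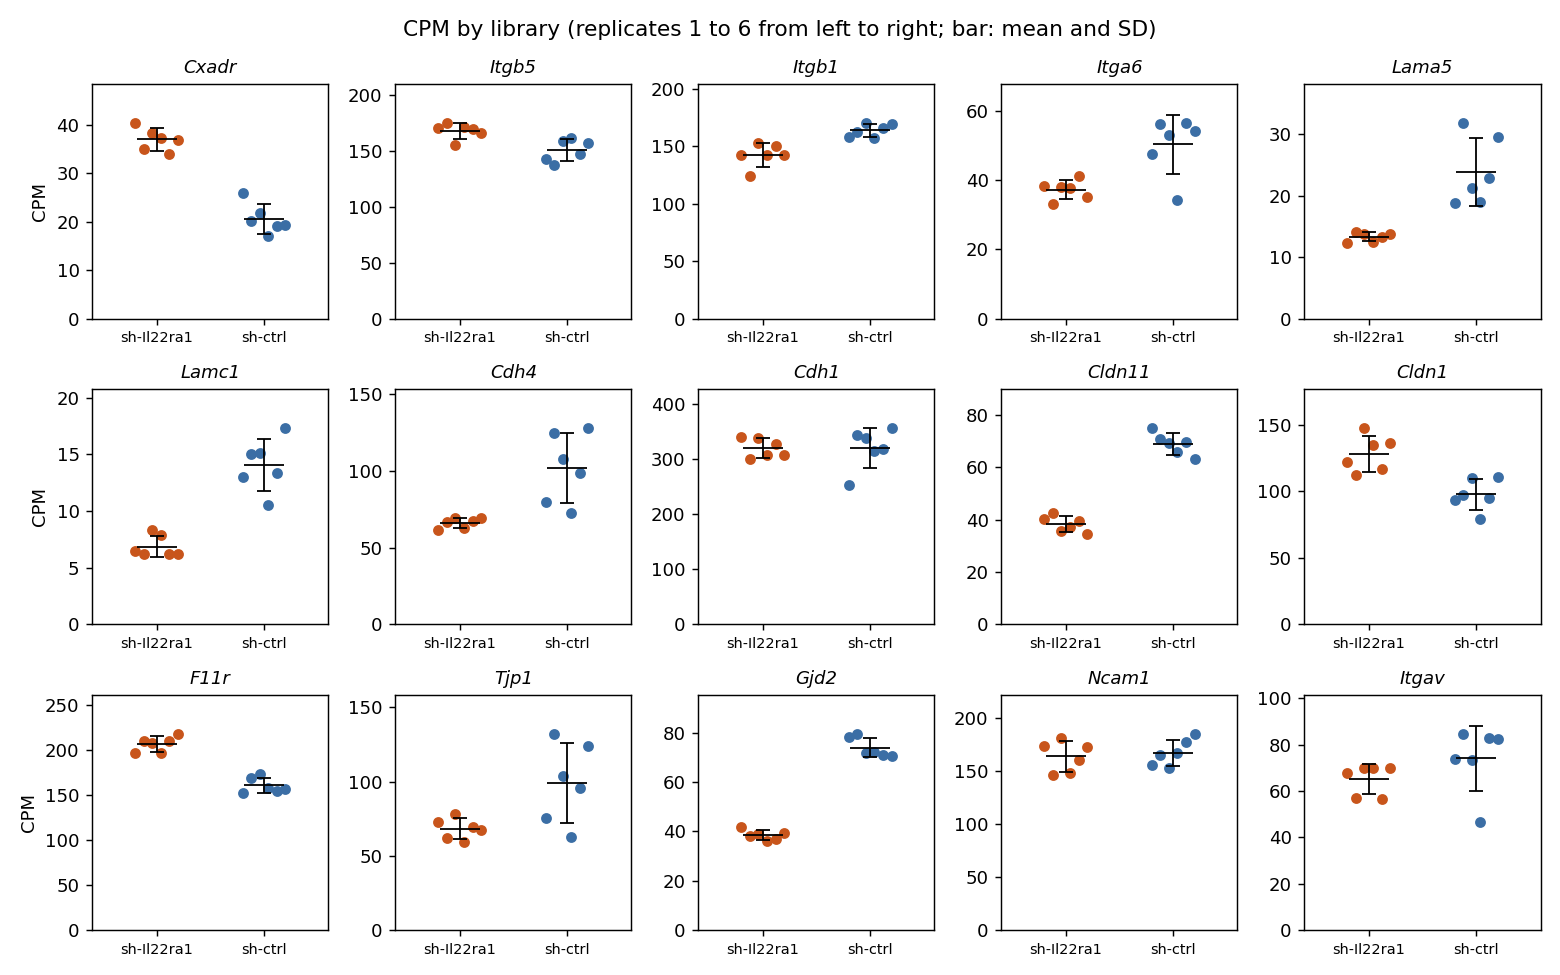
CPM of 15 adhesion genes in each library on linear axes from 0, sh-Il22ra1 at the left and sh-ctrl at the right of each panel, with the mean and SD. Cxadr, Gjd2, Cldn11, F11r and Lamc1 separate the groups, Cdh1 and Ncam1 do not, and sh-ctrl 1 and 4 are the lowest sh-ctrl values of Tjp1 and Cdh4.

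Of the tested integrin subunits, 3 beta chains rose, and 1 beta chain and 1 alpha chain fell. Itgb1, the beta chain shared by most matrix-binding integrins, fell slightly: it had 143, 124, 153, 142, 150.3 and 142 CPM in sh-Il22ra1 libraries 1 to 6, against 158, 163, 170.4, 157, 166 and 169 CPM in sh-ctrl libraries. No values overlapped, and the log2 fold change was -0.20 (SE 0.0567, edgeR adjusted p = 0.00556). Itgb5, the partner of alpha v in the vitronectin receptor and a co-receptor for adenovirus entry, had 171, 175, 155, 171, 169 and 166 CPM in sh-Il22ra1 libraries, against 143, 137, 159, 161, 147 and 157 CPM in sh-ctrl libraries. Here 3 of the 6 sh-ctrl libraries lay within the sh-Il22ra1 range. Its log2 fold change was 0.15 (SE 0.0557, edgeR adjusted p = 0.0263), and the call was lost when sh-Il22ra1 replicate 2, 4 or 6 or sh-ctrl replicate 1, 2 or 5 was left out, with edgeR adjusted p up to 0.0656.

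Set against each other within a library, these 2 chains changed balance. The log2 ratio of Itgb5 to Itgb1 reads averaged 0.241 ± 0.156 in sh-Il22ra1 and -0.122 ± 0.0927 in sh-ctrl libraries (SD, n = 6 each). The difference was 0.36, with a two-sided exact permutation p of 0.00433 and 0.00866 after Benjamini-Hochberg adjustment over the 2 ratios examined. Only sh-Il22ra1 3, at 0.0211, lay below the highest sh-ctrl library, sh-ctrl 4 at 0.0339. With libraries of the same replicate number taken as pairs, the adjusted exact permutation p was 0.0625. The ratio was higher in sh-Il22ra1 in 6 of 6 pairs, for which the unadjusted p is 0.03125, the smallest that 6 pairs allow.

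Itga6, the alpha chain of laminin receptors, was the one alpha chain that passed. It had 38.2, 33.1, 38.0, 37.7, 41.1 and 35.2 CPM in sh-Il22ra1 libraries 1 to 6, against 47.5, 56.2, 53.0, 34.3, 56.5 and 54.2 CPM in sh-ctrl libraries. Only sh-ctrl 4 lay within the sh-Il22ra1 range, and the log2 fold change was -0.44 (SE 0.0996, edgeR adjusted p = 0.00129). Itga3, another laminin-binding chain, had 88.3, 98.8 and 103 CPM as lowest, median and highest in sh-Il22ra1 libraries and 73.8, 89.7 and 101 CPM in sh-ctrl libraries; its log2 fold change of 0.13 (SE 0.0727) did not pass (edgeR adjusted p = 0.130), but passed without sh-ctrl 6 (0.18, edgeR adjusted p = 0.0432). Itgav, which pairs with beta 5, had 67.9, 56.8, 69.9, 69.7, 56.7 and 69.9 CPM in sh-Il22ra1 libraries against 73.9, 84.7, 73.6, 46.7, 82.8 and 82.5 CPM in sh-ctrl libraries. Every sh-ctrl library but sh-ctrl 4 lay above the sh-Il22ra1 range. Over all libraries the log2 fold change of Itgav was -0.19 (SE 0.112, edgeR adjusted p = 0.175), without sh-ctrl 4 it was -0.30 (edgeR adjusted p = 0.00120) and without sh-ctrl 1 and 4 it was -0.33 (edgeR adjusted p = 0.000164). With length and GC offsets it was -0.03 (edgeR adjusted p = 0.750).

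The remaining integrin subunits were low. Itgb2, the beta chain of leukocyte integrins, rose at a low level, with 4.25, 5.74 and 7.80 CPM as lowest, median and highest in sh-Il22ra1 libraries and 2.53, 3.48 and 4.87 CPM in sh-ctrl libraries (log2 fold change 0.71, SE 0.190, edgeR adjusted p = 0.00424), and 2 sh-ctrl libraries lay within the sh-Il22ra1 range. The 8 listed leukocyte markers, of which Itgb2 and Itgam are 2, summed to 10.9 to 16.1 CPM in sh-Il22ra1 and 21.2 to 32.2 CPM in sh-ctrl libraries; Cd68 had 6.17 CPM in sh-Il22ra1 and 22.03 CPM in sh-ctrl libraries, and Ptprc, Cd3e and Adgre1 were each at or below 0.102 CPM on average in both groups. Itgb2l, a relative of Itgb2, had 1.05 ± 0.181 CPM in sh-Il22ra1 and 0.600 ± 0.325 CPM in sh-ctrl libraries (SD, n = 6 each; log2 fold change 0.81, SE 0.317, edgeR adjusted p = 0.0382), and this call was lost without any one of sh-Il22ra1 1, 2, 4 or 6 or sh-ctrl 1, 2, 3, 4 or 6, without sh-ctrl 1 and 4 together (0.78, edgeR adjusted p = 0.0641), with no filter (edgeR adjusted p = 0.0589) and with the replicate block (edgeR adjusted p = 0.0516). Itga4 was just above the threshold, with 2.61 ± 0.357 CPM in sh-Il22ra1 and 1.97 ± 0.371 CPM in sh-ctrl libraries (log2 fold change 0.41, SE 0.170, edgeR adjusted p = 0.05001), and it passed under 7 of the 20 alternatives, among them without sh-ctrl 1 and 4 (0.49, edgeR adjusted p = 0.0450); 11.5% of its exon bases are shared with Cerkl on the other strand. Itgae (0.65, SE 0.305) passed only without sh-Il22ra1 5 (edgeR adjusted p = 0.0400) or without sh-ctrl 5 (edgeR adjusted p = 0.0234). Itga9, Itgb4, Itgal, Itga10, Itga2b, Itga7 and Itgb7 did not pass, with log2 fold changes between -0.36 for Itgb4 and 0.14 for Itgal.

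Of the genes named after integrins that are not subunits, Itgb1bp1, whose product ICAP-1 binds the tail of integrin beta 1 and restrains its activation, rose. It had 31.6, 37.1 and 38.5 CPM as lowest, median and highest in sh-Il22ra1 libraries and 26.8, 30.2 and 36.3 CPM in sh-ctrl libraries, with 2 sh-ctrl libraries inside the sh-Il22ra1 range. The log2 fold change was 0.25 (SE 0.0816, edgeR adjusted p = 0.0156), and 22.8% of its exon bases are shared with Asap2 on the other strand. Itgb3bp, a centromere protein, did not pass (log2 fold change 0.12, SE 0.127), but passed without sh-ctrl 1 and 4 (0.30, edgeR adjusted p = 0.0155).

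Of the 9 tested laminin chains, ligands of integrins, 3 fell and 1 rose. Lamc1, the gamma chain of most laminins, had 6.43, 6.17, 8.30, 7.86, 6.25 and 6.17 CPM in sh-Il22ra1 libraries 1 to 6, against 13.0, 15.0, 15.1, 10.5, 13.3 and 17.3 CPM in sh-ctrl libraries. Lama5, an alpha chain found in many adult basement membranes, had 12.4, 14.1, 13.8, 12.5, 13.3 and 13.8 CPM in sh-Il22ra1 libraries, against 18.8, 31.9, 21.3, 19.1, 23.0 and 29.6 CPM in sh-ctrl libraries. Neither gene overlapped between the groups, and the log2 fold changes were -1.04 for Lamc1 (SE 0.122, edgeR adjusted p = 1.38e-06) and -0.85 for Lama5 (SE 0.122, edgeR adjusted p = 1.35e-05). Lama5 has 11388 exon bases, and with offsets for exon length and GC content its log2 fold change was -0.49 and that of Lamc1 was -0.84; both still passed.

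Lamb1, a beta chain that forms trimers with Lama5 and Lamc1, was lower at 4.16, 4.34 and 5.55 CPM as lowest, median and highest in sh-Il22ra1 libraries, against 5.07, 5.48 and 6.61 CPM in sh-ctrl libraries, 3 of which lay within the sh-Il22ra1 range. Its log2 fold change of -0.32 (SE 0.120, edgeR adjusted p = 0.0304) did not pass without sh-Il22ra1 2, 3, 4 or 5, without sh-ctrl 3 or 5, with no filter (edgeR adjusted p = 0.0524), or with the length and GC offsets, where it was -0.19 (edgeR adjusted p = 0.209). Lamc3, a gamma chain of less common laminins, rose at a low level, with 1.85, 2.23 and 2.98 CPM in sh-Il22ra1 libraries and 0.840, 1.06 and 2.07 CPM in sh-ctrl libraries (log2 fold change 0.97, SE 0.224, edgeR adjusted p = 0.00136), and sh-ctrl 5 was the one library of its group inside the sh-Il22ra1 range. Lama1, Lama4, Lamb2 and Lamb3 did not pass, with mean levels between 0.479 and 3.27 CPM and log2 fold changes between -0.44 for Lama4 and 0.64 for Lama1; Lama1 passed without sh-ctrl 5 (0.84, edgeR adjusted p = 0.0341). Beside the laminins, 9 listed fibroblast and stellate markers summed to 2.02 to 3.22 CPM in sh-Il22ra1 and 4.63 to 9.85 CPM in sh-ctrl libraries, with 3 of them lower, none higher and Lum and Dcn at or near 0; their part in the laminin values was not tested. In a bulk sample, fewer cells of a type and less RNA per cell cannot be told apart.

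Among the 10 tested cadherins 4 fell and 1 rose, and E-cadherin and N-cadherin did not pass. Cdh1 had 299.7, 318 and 339.7 CPM as lowest, median and highest in sh-Il22ra1 libraries and 253, 328 and 356 CPM in sh-ctrl libraries, with a log2 fold change of -0.0022 (SE 0.0723, edgeR adjusted p = 0.983). Cdh2, N-cadherin, had 125, 133 and 144 CPM in sh-Il22ra1 and 132, 143 and 155 CPM in sh-ctrl libraries; its log2 fold change of -0.10 (SE 0.0572) did not pass (edgeR adjusted p = 0.162), but passed without sh-ctrl 4 (-0.13, edgeR adjusted p = 0.0437) and without sh-ctrl 1 and 4 (-0.16, edgeR adjusted p = 0.0140). With length and GC offsets it was -0.03 (edgeR adjusted p = 0.599). The log2 ratio of Cdh2 to Cdh1 within a library averaged -1.25 ± 0.0337 in sh-Il22ra1 and -1.15 ± 0.136 in sh-ctrl libraries (SD, n = 6 each), a difference of -0.10 with a two-sided exact permutation p of 0.0390 and 0.0390 after Benjamini-Hochberg adjustment. Its test did not hold in 7 of 12 runs that left out a library: without sh-Il22ra1 1, 2, 3, 4 or 5 or sh-ctrl 2, with differences between -0.106 and -0.0924 and adjusted exact permutation p between 0.0519 and 0.102, and without sh-ctrl 1, at -0.89, where the difference was -0.05 and the adjusted exact permutation p was 0.0714.

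Cdh4, R-cadherin, had 61.5, 66.6, 69.1, 63.0, 67.5 and 69.4 CPM in sh-Il22ra1 libraries 1 to 6, against 79.8, 124, 108, 72.7, 98.6 and 128 CPM in sh-ctrl libraries. All sh-ctrl libraries were higher, sh-ctrl 1 and 4 the least so, and the log2 fold change was -0.62 (SE 0.112, edgeR adjusted p = 0.000145). Cdh24 had 38.7, 40.9 and 44.8 CPM as lowest, median and highest in sh-Il22ra1 libraries and 55.5, 60.9 and 66.9 CPM in sh-ctrl libraries, again with no overlap (log2 fold change -0.56, SE 0.0641, edgeR adjusted p = 1.02e-06). Cdh22 was the cadherin that rose, with 66.2, 77.6 and 82.9 CPM in sh-Il22ra1 and 50.2, 58.0 and 69.3 CPM in sh-ctrl libraries (log2 fold change 0.39, SE 0.0781, edgeR adjusted p = 0.000386), where sh-ctrl 4 overlapped. Per kilobase of exon, Cdh4, Cdh22 and Cdh24 stood at 9.74, 20.4 and 11.9 CPM per kb in sh-Il22ra1 and 15.0, 15.6 and 17.4 CPM per kb in sh-ctrl libraries.

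Cdh8 (10.3 ± 0.764 CPM in sh-Il22ra1 and 13.2 ± 1.37 CPM in sh-ctrl libraries, SD, n = 6 each) and Cdh23, the long cadherin of inner-ear tip links (20.1 ± 2.31 and 27.2 ± 7.14 CPM), were lower with log2 fold changes of -0.35 (edgeR adjusted p = 0.00369) and -0.44 (edgeR adjusted p = 0.0132). Neither passed with length and GC offsets, at -0.20 (edgeR adjusted p = 0.0844) for Cdh8 and -0.13 (edgeR adjusted p = 0.198) for Cdh23. Cdh7, Cdh10 and Cdh18 were low, at 0.861 to 3.07 CPM on average, with log2 fold changes of 0.05, 0.0017 and 0.10 that did not pass.

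Of 23 claudins 5 could be tested, and 3 of these held most of the summed level of the family. Cldn11, a claudin of myelin and Sertoli cells, had 34.6, 38.2 and 42.5 CPM as lowest, median and highest in sh-Il22ra1 libraries and 63.1, 69.3 and 74.8 CPM in sh-ctrl libraries. Cldn1, a barrier-forming claudin of many epithelia, had 113, 128 and 147 CPM in sh-Il22ra1 and 79.2, 96.4 and 111 CPM in sh-ctrl libraries. Cldn12, a widely expressed claudin, had 52.9, 57.8 and 61.4 CPM in sh-Il22ra1 and 38.5, 45.2 and 48.0 CPM in sh-ctrl libraries. The groups did not overlap for any of these 3 genes. Cldn11 fell with a log2 fold change of -0.85 (SE 0.0657, edgeR adjusted p = 6.30e-09), while Cldn1 and Cldn12 each rose by 0.39 on the log2 scale (SE 0.0831 and 0.0686, edgeR adjusted p = 0.000708 and 0.000115). Of the summed claudin level per kilobase, Cldn1 held 51.2% ± 3.82 in sh-Il22ra1 and 37.4% ± 2.90 in sh-ctrl libraries, and Cldn11 held 26.6% ± 2.78 and 45.8% ± 3.19 (SD, n = 6 each). Cldn11 was thus the leading claudin in sh-ctrl libraries and Cldn1 in sh-Il22ra1 libraries. Cldn2 and Cldn7, near 1 CPM, did not pass.

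**Figure D4:**
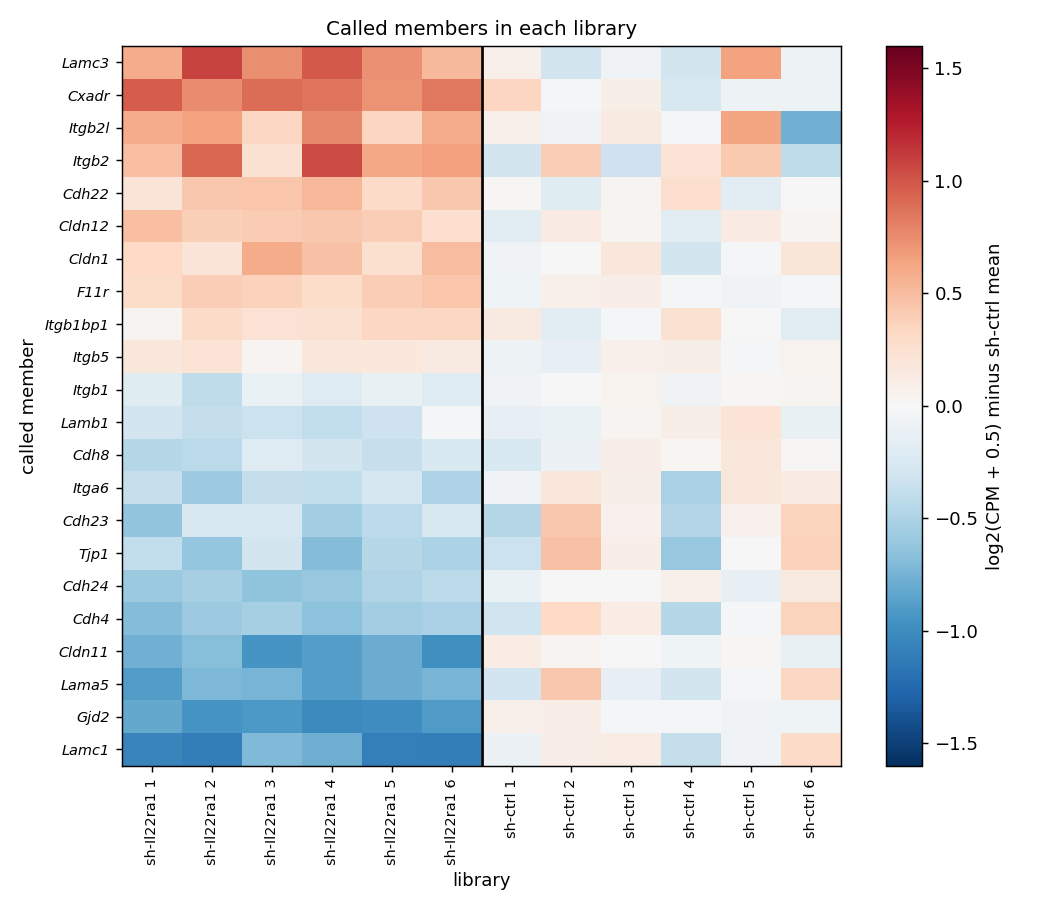
Log2(CPM + 0.5) of the 22 genes that passed, in each library, minus the sh-ctrl mean; rows run by fold change and columns are the 6 sh-Il22ra1 and then the 6 sh-ctrl libraries. Gjd2, Cldn11, Lamc1, Cxadr, Tjp1, Cdh4 and Cdh23 keep one direction in all sh-Il22ra1 libraries. Tjp1, Cdh4 and Cdh23 are low in sh-ctrl 1 and 4 as well.

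Exon length moved with some of these results. The 12 genes that fell had a median exon length of 6320 bases, the 10 that rose 3319 and the 27 that did not pass 5044; over all tested genes those medians were 3973, 2731.5 and 3364.5. Across the 49 genes the log2 fold change was correlated with log2 exon length at r = -0.10, and at -0.20 across 13032 tested genes with a length, as a description across genes, which are not independent replicates. With spline offsets for length and GC content in each library, 13 adhesion genes passed as higher and 10 as lower. Of the 22 calls, 19 were unchanged. Over all tested genes the number higher rose from 3323 with these offsets, and the number lower fell slightly from 3472. The shares of adhesion genes higher and lower were both somewhat below those of all tested genes in this setting. With the offsets Itga3 (0.34, edgeR adjusted p = 5.89e-06), Itga4 (0.61, edgeR adjusted p = 0.00727), Lama1 (0.88, edgeR adjusted p = 0.0129) and Epcam (-0.16, edgeR adjusted p = 0.0251) passed in addition. The offsets moved the median log2 fold change of all tested genes to 0.03 and that of the adhesion genes to 0.07.

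**Figure D5:**
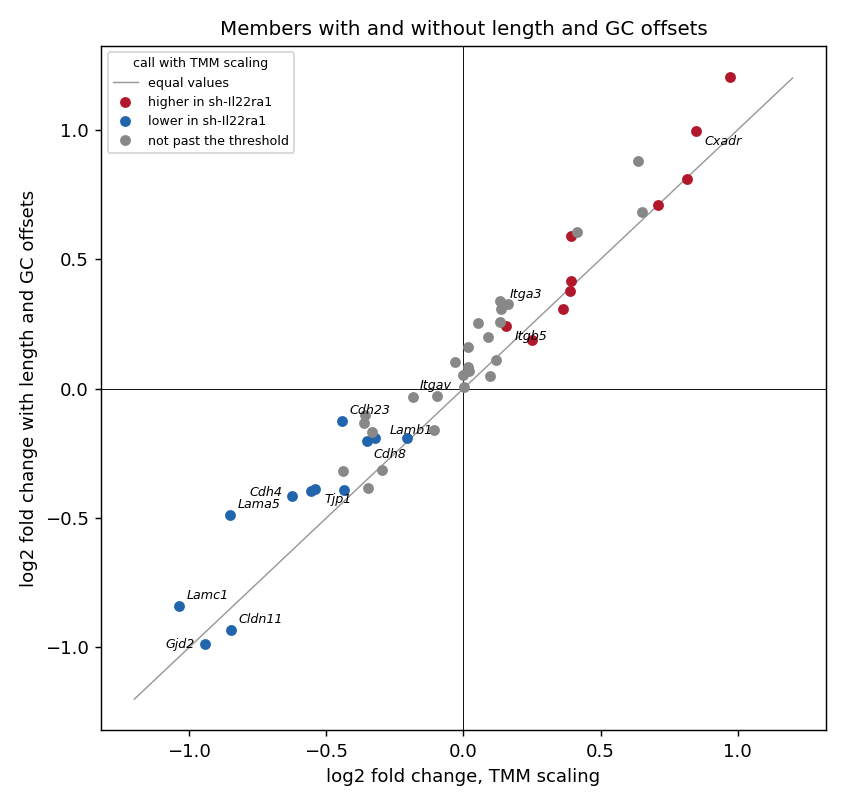
Log2 fold change of tested genes with TMM scaling (horizontal) and with length and GC offsets as well (vertical); the line marks equal values and the colour the call with TMM scaling. Gjd2 and Cldn11 stay close to the line. The long genes Lama5, Cdh23 and Cdh4, which fell, move toward 0, while Cxadr and Lamc3, which rose, move away from 0.

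The proteins that work with these receptors were followed through 6 lists of partner genes. Of these, 133 genes were tested, 24 rose and 42 fell. With length and GC offsets 47 were higher and 33 lower. The number higher over all tested genes also grew with the offsets, from 3323, while the number lower fell slightly, from 3472. The shares of partner genes higher and lower with offsets were near those of all tested genes. Among 38 focal adhesion genes and integrin adaptors, 8 rose and 11 fell, with a median log2 fold change of 0.03. Fermt2, kindlin-2, which activates integrins through their beta tails, had 28.1 to 33.7 CPM in sh-Il22ra1 and 51.6 to 61.4 CPM in sh-ctrl libraries (log2 fold change -0.92, SE 0.0665, edgeR adjusted p = 2.46e-09). Lpp, a LIM-domain protein of focal adhesions, had 3.42 ± 0.548 CPM in sh-Il22ra1 and 13.7 ± 3.38 CPM in sh-ctrl libraries (SD, n = 6 each; log2 fold change -2.01, edgeR adjusted p = 1.74e-08). Arhgef7, a PAK-binding exchange factor, and Tns2, a tensin, fell by 0.67 and 1.03 on the log2 scale (edgeR adjusted p = 3.76e-07 and 4.54e-07).

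Of 18 genes for other basement membrane proteins, matrix ligands and laminin receptors, 2 rose and 8 fell (median -0.09). Sdc3, a heparan sulfate proteoglycan of the cell surface, had 42.3 ± 3.44 CPM in sh-Il22ra1 and 89.3 ± 10.9 CPM in sh-ctrl libraries (SD, n = 6 each; log2 fold change -1.08, edgeR adjusted p = 3.74e-09). Thbs1, Col4a2 and Ntn1, which encode thrombospondin 1, a chain of collagen IV and netrin 1, were low, at 0.443, 1.11 and 2.68 CPM in sh-Il22ra1 and 2.30, 2.53 and 5.24 CPM in sh-ctrl libraries, and fell by 2.36, 1.17 and 0.97 on the log2 scale. Col4a1, another collagen IV chain, was higher in level, at 12.97 CPM in sh-Il22ra1 and 12.80 CPM in sh-ctrl libraries. It did not pass (log2 fold change 0.02, edgeR adjusted p = 0.876). The fibroblast marker sums given beside the laminins apply to this list as well.

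Of 28 tight junction scaffolds and partners, 5 rose and 10 fell (median -0.17). Crb3, a polarity protein, was lower in sh-Il22ra1, at 24.9 ± 1.503 CPM against 46.1 ± 4.80 CPM in sh-ctrl libraries (SD, n = 6 each; log2 fold change -0.89, edgeR adjusted p = 2.17e-08), and Lin7c, a polarity scaffold, fell by 0.49 on the log2 scale. Amotl2, an angiomotin, and Cgn, which encodes cingulin, rose by 0.54 and 0.37. Among 15 catenins and other adherens junction genes, 4 rose and 4 fell (median 0.05): Jup, plakoglobin, and the phosphatase gene Ptprm fell by 0.50 and 0.72, and Ssx2ip and Arvcf, a catenin of the p120 family, rose by 0.32 and 0.28. Of 10 desmosome genes none rose and 5 fell (median -0.23), with Pkp4, Dsp, Pkp2 and Dsg2 at -0.55, -0.60, -0.50 and -0.42. Among 24 other connexins and adhesion molecules 5 rose and 4 fell (median -0.0033): Icam1, a ligand of leukocyte integrins, and Mcam rose by 0.72 and 0.56, and the neural adhesion genes Nrcam and Chl1 fell by 0.70 and 0.73. The counts without offsets are to be read against the 25.4% of all tested genes that rose and the 26.5% that fell.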

How the data were processed

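RNA of 12 Min6 samples, extracted with TRIzol, was sequenced as paired ends from libraries made with the VAHTS Universal V6 kit, per the labels' protocols. Groups were taken from the sample titles, although in sh-Il22ra1 samples 2 to 6 the treatment label raises the last digit of the gene name. The submitters' processing notes name HISAT2 2.0.5, HTSeq and mm10; annotation and strand setting are not stated in them or elsewhere in the sources used here. The deposited files hold raw counts per gene symbol. The 5 closing rows, which hold unassigned reads, did not enter library sizes; in sh-Il22ra1 and sh-ctrl files they held on average 9.79% and 14.8% of reads as unaligned, 4.05% and 3.84% outside features, 2.07% and 1.87% as ambiguous, 4.80% and 4.44% of low quality and 4.22% and 3.96% with several alignments.

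Counts were analysed with edgeR 4.0.16 in R 4.3.3: filterByExpr (minimum count 10, minimum total 15), TMM, glmQLFit and glmQLFTest, two-sided, Benjamini-Hochberg over 13102 genes, threshold 0.05. The SE is the size of the log2 fold change over the square root of F. Exon lengths, positions and overlaps are from GENCODE M21 on GRCm38 (mm10); 23376 of 24421 symbols matched directly and 670 by synonym. Ratios used 0.5 added reads. The members, lists and rules were chosen with earlier results of these data known. Named are Cxadr, Itgb5, Epcam, Ncam1, F11r, Tjp1, Ocln, Gjd2, Cdh1, Cdh2, Itgav and Itgb1. Also named are up to 6 called members with the smallest p in each family, and the other tested members by value or range. Up to 4 called genes of each partner list are named, with Col4a1 added beside Col4a2. Values of 6 libraries are given singly or as lowest, median and highest. Alternatives were RLE scaling, DESeq2 1.42.0, limma-voom (limma 3.58.1), no filter, a mean of at least 1 CPM, a replicate block, each library left out, and sh-ctrl 1 and 4 left out together; offsets from splines on length and GC content (4 df each) were added after seeing the data. The most alike libraries of a group still differed beyond sampling noise (chi-square over degrees of freedom 3.82), and all were kept as separate samples. The values of some genes are not reported here, although they enter the counts. The edgeR fit was tested on simulated counts, and the ratios, offsets and motif search were not.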

Additional observations from a re-analysis of the deposited data

Results flagged for a closer look

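Of 98 sets of 6 values (49 tested genes in both groups), 6 held a library far from the other 5 by Dixon's criterion at 95%; chance flags about 1 in 20 such sets. Itgb1 had 124 CPM in sh-Il22ra1 2, where the other sh-Il22ra1 libraries had 142 to 153 CPM. Itgb1bp1 had 31.6 CPM in sh-Il22ra1 1, against 36.0 to 38.5 CPM in the others of its group. Lamb1 had 5.55 CPM in sh-Il22ra1 6, against 4.16 to 4.45 CPM. Among sh-ctrl libraries, Itgav had 46.7 CPM in sh-ctrl 4 against 73.6 to 84.7 CPM in the others, Itga7 had 0.336 CPM in sh-ctrl 3 against 1.296 to 1.69 CPM, and Lamc3 had 2.07 CPM in sh-ctrl 5 against 0.840 to 1.23 CPM.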

How the results depend on the processing

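The number of adhesion genes that passed stayed between 8 and 11 higher and between 11 and 14 lower with any one library left out. It was 11 higher and 14 lower without sh-ctrl 1 and 4. Over all tested genes both numbers were then also larger than the 3323 and 3472 with all libraries. With one library left out, counts over all tested genes were 2881 to 3521 higher and 3239 to 3970 lower. Partner genes were then 21 to 26 higher and 39 to 47 lower. With length and GC offsets 47 partner genes were higher and 33 lower. Higher were then 15 focal adhesion, 8 tight junction, 6 basement membrane and 2 desmosome genes. So were 8 catenin or adherens junction genes (2 lower) and 8 other adhesion molecules (2 lower). With all libraries and no offsets these lists held 38, 28, 18, 10, 15 and 24 tested genes, in the order named. Over all tested genes the offsets also gave more than 3323 higher and slightly fewer than 3472 lower. Without sh-ctrl 1 and 4, 17 focal adhesion genes and 7 other adhesion molecules were lower and 1 desmosome gene was higher. More of all tested genes were lower, and more higher, in that setting as well. Whether any list moved more than all tested genes in these settings was not tested. Filtering at a mean of 1 CPM left 3 other adhesion molecules higher, and 1 to 3 basement membrane genes were higher with one library left out. Of the 22 calls, Cdh8 and Cdh23 were lost only with those offsets, and Itgb2l, Itgb5 and Lamb1 under several settings given beside them. Genes that did not pass and changed sign were Cdh1 (0.0045 with limma-voom, 0.0041 with the replicate block, 0.053 with offsets), Cdh10 (-0.025 with limma-voom, -0.013 with a mean of at least 1 CPM, -0.020 with the replicate block, -0.023 without sh-ctrl 1 and 4), Cdh7 (-0.11) and Ocln (-0.053) without sh-ctrl 1 and 4, and Ncam1 (0.10 with offsets). With one library left out, the log2 fold change ran between -0.062 and 0.030 for Cdh1, -0.13 and 0.089 for Cdh10, -0.040 and 0.20 for Cdh18, -0.13 and 0.19 for Cdh7, -0.19 and 0.15 for Itga7, -0.0067 and 0.20 for Itgal, -0.036 and 0.097 for Itgb7, -0.060 and 0.0019 for Ncam1 and -0.026 and 0.074 for Ocln; the causes were not tested. The difference in the log2 ratio of Cdh2 to Cdh1 was -0.12 to -0.049 with one library left out, and that of Itgb5 to Itgb1 0.31 to 0.41.

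Same-numbered libraries are not said to be pairs, and their deviations correlated at 0.191, -0.0475, 0.174, 0.281, 0.0275 and 0.0456 for replicates 1 to 6, so the numbers were not taken to pair samples; only sh-ctrl 4 correlated best with its own number. With the replicate block, the difference in the Cdh2 to Cdh1 ratio was -0.10 (adjusted exact permutation p = 0.0938), that in the Itgb5 to Itgb1 ratio 0.36 (adjusted exact permutation p = 0.0625, where 6 pairs allow no unadjusted p under 0.03125), and Itgb2l did not pass (edgeR adjusted p = 0.0516). Depth limits the 46 untested genes: none exceeded 115 reads over all libraries.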

Other observations

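Among the genes below the filter, chosen here after their values were seen, Cldn4, a claudin of epithelia, had 44 reads in the sh-Il22ra1 libraries together (4 to 12 in each) and 7 in the sh-ctrl libraries together (0 to 3 in each), a ratio of 6.10 with an exact Poisson interval of 2.73 to 16.1 at 95% that covers counting error only. Without a filter its log2 fold change was 2.49 (SE 0.585, quasi-likelihood test of edgeR, Benjamini-Hochberg adjusted p = 0.00137). In that run 6837 of 19024 genes (35.9%) passed, sparse and well-counted genes together, beside 6795 of 13102 with the filter. The share among genes below the filter alone was not computed. Itgad, with 10 reads in sh-Il22ra1 and 38 in sh-ctrl libraries, Itga11, with 17 and 40, and Itga8, with 0 and 6, also passed there, lower in sh-Il22ra1 (edgeR adjusted p = 0.0120, 0.0397 and 0.0446). Cdh5, the cadherin of endothelium, had 0 reads in sh-Il22ra1 and 4 in sh-ctrl libraries, and Cldn17, Cldn22 and Cldn24 had no reads in any library.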
